A study of Homo sapiens with 2 samples.

Results

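The regions described here are the H3K4me3 peaks of human chromosome 9 in HEC-1-B cells, an established human uterine (endometrial) adenocarcinoma line. They were every region on the assembled chromosome 9 sequence in 2 deposited peak lists, 1 from wild-type cells and 1 from cells in which the gene of the zinc-finger factor ZNF143 was knocked out (labelled ZNF143KO). The wild-type list held 901 such regions of 20567 in all, and the knockout list 866 of 20509. H3K4me3 was immunoprecipitated in both genotypes with the same antibody and sequenced, with 1 library per genotype. No value below therefore has a replicate check, and no test between genotypes was made. Whether the knockout cells came from 1 clone is not given in the sources used here.

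H3K4me3, trimethylation of lysine 4 of histone H3, is placed by SET1 and MLL methyltransferase complexes and is concentrated around the start sites of active or poised genes. ZNF143 is a sequence-specific activator that binds close to many promoters, and the series title names looping between enhancers and promoters and the geometry of CTCF and cohesin. Chromosome 9 carries a large block of heterochromatin on the long arm next to the centromere, flanked on both sides by duplicated sequence. Reads from such duplicated sequence can align equally well in several places.

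Positions are hg19 coordinates counted from 1, and a region was assigned to an arm, a window or a side by its summit. The arms were divided by the centromere gap of hg19 from 47.37 to 50.37 Mb. The short arm held 260 wild-type regions covering 238 kb and 238 knockout regions covering 248 kb. The long arm held 641 wild-type regions covering 580.0 kb and 628 knockout regions covering 623 kb. The knockout list thus had fewer regions on both arms and covered more bases on both. It also had fewer regions on 14 of the 22 autosomes, chromosome 9 among them. With regions within 1 kb merged, chromosome 9 had 754 wild-type and 744 knockout regions. No region of either list had its summit in the gap.

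Wild-type regions on chromosome 9 had a median width of 877 bp and quartiles of 483 and 1267 bp. Knockout regions were the wider, with a median of 975.5 bp and quartiles of 563.5 and 1402 bp. Over all autosomes the median widths were 888 and 1008 bp. Covered bases on chromosome 9 were 1.07 times as many in the knockout as in the wild-type list, and chromosome 8 had the only lower ratio of the 22 autosomes, 1.04. The highest was 1.16, on chromosome 13.

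Regions were unevenly spread along the chromosome. Of 29 windows of 5 Mb, the 3 from 50 to 65 Mb held no region in either list. Whether hg19 holds sequence there to which reads can align was not examined. The absence of regions, and the likeness of the lists in it, are therefore no measure of H3K4me3. The longest stretch without a region was nearly the same in both lists. It ran from 46844727 to 65576224 in the wild-type list, a length of 18.7 Mb, and from 46844786 to 65576271 in the knockout list. The last region before it, at chr9:46843325-46844726 in the wild-type list, had a −log10 q of 305, and its knockout partner one of 413. The first after it, at chr9:65576225-65577176, had 130, and its partner 140. Both were called in both lists.

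The next longest stretch without a region was on the short arm, from 29214734 to 32384273 in the wild-type list and from 29214772 to 32384266 in the knockout list, 3.17 Mb in both. The stretches that followed differed between the lists. In the wild-type list the next was on the long arm from 104296949 to 106855489, and in the knockout list it was on the short arm from 10613389 to 12774985.

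The densest window was that from 130 to 135 Mb, with 128 wild-type and 125 knockout regions covering 108 and 118 kb. It was followed by 135 to 140 Mb with 89 and 87 regions, and by 35 to 40 Mb with 64 and 60. Among windows with any region the sparsest over both lists was 80 to 85 Mb, with 12 wild-type and 9 knockout regions. Beyond 128.0 Mb there were 268 wild-type and 266 knockout regions, or 20.4 and 20.3 per Mb. On the long arm before that point there were 373 and 362, or 4.80 and 4.66 per Mb, with the region-free stretch included in the length. How much of that length is sequence to which reads can align was not determined here. These 2 densities before the point are therefore lower limits. The wild-type list had more regions in 17 windows, the knockout list in 7, and 2 had equal numbers. The knockout list covered more bases in 22 of the 26 occupied windows.

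**Figure D1:**
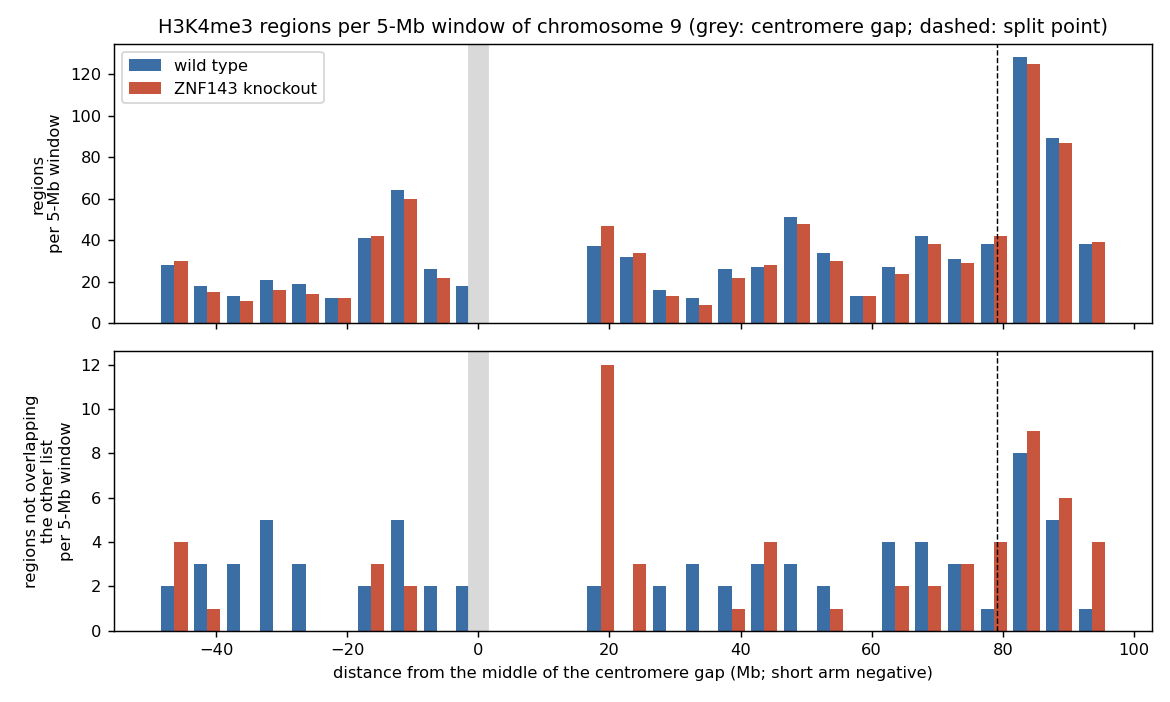
Number of H3K4me3 regions (upper panel) and of regions that overlap none of the other list (lower panel) per 5-Mb window, against distance from the middle of the centromere gap in Mb; blue bars are the wild-type and red bars the knockout list, grey marks the gap and the dashed line 128.0 Mb. The tallest pair of bars is the window with 128 and 125 regions, and the tallest red bar of the lower panel is the window from 65 to 70 Mb with 12 unshared knockout regions.

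A region was called unshared when it had not 1 bp in common with any region of the other list. On chromosome 9, 70 wild-type regions were unshared, 7.77% (Clopper-Pearson 95% interval 6.11 to 9.71%), where the background over all autosomes was 5.56%. Of the knockout regions 61 were unshared, 7.04% (5.43 to 8.96%), where the background was 9.61%. The unshared share was thus above the autosomal value in the wild-type list and below it in the knockout list. Chromosomes 8 and 9 were the only 2 of 22 autosomes on which the share was higher in the wild-type than in the knockout list. On chromosome 9 that difference was small and the intervals of the lists overlapped. With a −log10 q of at least 5 required, its shares were 6.29% (wild type) and 6.14% (knockout). The intervals reflect the number of regions counted and nothing else, such as variation between cultures.

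The arms contributed unequally. On the short arm 27 wild-type regions were unshared, 10.4% (6.96 to 14.7%), and 10 knockout regions, 4.20% (2.03 to 7.59%). On the long arm the numbers were 43 wild-type regions, 6.71% (4.90 to 8.93%), and 51 knockout regions, 8.12% (6.11 to 10.5%). The order of the lists was therefore opposite on the arms. On the long arm the knockout excess rested on the window from 65 to 70 Mb, where 12 of 47 knockout regions were unshared, 25.5% (13.9 to 40.3%), against 2 of 37 wild-type regions, 5.41% (0.661 to 18.2%). Without that window the long arm had 6.79% unshared (wild type) and 6.71% (knockout), and the whole chromosome 7.87% and 5.98%.

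The stretch from 10 to 30 Mb was picked out after its values were seen. There 11 of 65 wild-type regions were unshared, 16.9% (8.76 to 28.3%), where the background over all autosomes was 5.56%. All 11 were in the weakest quartile of the autosomal wild-type list by −log10 q. In that quartile 21.3% were unshared on the other autosomes. That share is over regions of the weakest quartile alone, and the 16.9% is over regions of any strength. The number of weakest-quartile regions in the stretch is not given here, so these shares cannot be compared. Of the 53 knockout regions in the stretch, 0 were unshared, where the background was 9.61%. For that total, 3 counts, the limit used for a count of 0, correspond to 5.66%. Window by window, the wild-type unshared regions numbered 3 of 13 from 10 to 15 Mb, 5 of 21 from 15 to 20 Mb, 3 of 19 from 20 to 25 Mb and 0 of 12 from 25 to 30 Mb.

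Unshared regions were weak in both lists. Their median −log10 q was 5.15 in the wild-type list, with a highest value of 26.9, against 155 for shared wild-type regions. In the knockout list it was 6.92, with a highest value of 61.9, against 247 for shared regions. Wild-type unshared regions had a median width of 220.5 bp and shared ones 926 bp, and for knockout regions these were 266 and 1023 bp. Unshared regions made up 2.41% and 2.24% of the covered bases. All 70 wild-type cases were in the weakest quartile of the autosomal wild-type list by −log10 q, where chromosome 9 had 30.6% unshared (24.7 to 37.0%) and the other autosomes 21.3% (20.1 to 22.5%). In the weakest knockout quartile the shares were 25.9% (20.3 to 32.1%) on chromosome 9 and 37.2% (35.8 to 38.6%) on the other autosomes. The opposite placing of the lists was thus seen within the weakest quartile too. No unshared region lay in the upper 50% of either list, which allows up to 1.28% in the third and 1.49% in the strongest wild-type quartile, and 1.13% and 2.24% in the knockout list.

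Of the unshared regions, 58 wild-type and 46 knockout regions were more than 1 kb from any region of the other list. They made up 6.44% and 5.31% of the regions of chromosome 9. The shares over all autosomes by this distance are not given here, so these counts cannot be placed against them. The strongest of these in the wild-type list by −log10 q were chr9:84457941-84458142 with 17.2, chr9:6632475-6633134 with 16.0, chr9:139237497-139237738 and chr9:17005373-17005618 with 12.5 each, and chr9:134420587-134421180 with 11.3. Their summit pileups, the numbers of fragments stacked at the summit as solved from the authors' columns of fold and p, ran from 17 to 22. The lowest pileups called on the chromosome were 7 (wild type) and 12 (knockout), so these regions were near the weak end of the lists.

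In the knockout list the strongest was chr9:129375757-129376914 with a −log10 q of 61.9 and a pileup of 76, which was 1158 bp wide. It was followed by chr9:93563710-93564482 with 58.8 and a pileup of 68. The remaining ones were chr9:140324362-140324858 with 30.9, chr9:133884440-133885080 with 27.5 and chr9:120176860-120177468 with 24.3. The first of these knockout regions stood at the 29.2 percentile of the autosomal knockout list, and the first wild-type region at the 18.7 percentile of its own.

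The strength of shared regions was compared over pairs in which a wild-type and a knockout region each overlapped exactly 1 region of the other list. There were 758 such pairs, with 84.1% of the wild-type regions of chromosome 9 and 87.5% of its knockout regions. A further 33 knockout regions spanned several wild-type regions, and 7 wild-type regions spanned several knockout regions. Summits of a pair were a median of 17 bp apart, and 87.2% lay within 100 bp, so pairs marked the same positions closely. Bases in both lists came to 772 kb, or 94.4% of wild-type bases and 88.6% of knockout bases.

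The measure was the log2 ratio of −log10 q, knockout over wild type. Without centring it was above 0 in 660 of the 758 pairs, 87.1%, where the background over autosomal pairs was 92.4%, and its median was 0.56 on chromosome 9 and 0.84 over all autosomes. At its lowest, the local rate recovered from the authors' columns was 3.25 (knockout) and 1.40 (wild type) fragments per base. That rate is an inferred measure of relative depth, which fragment length or scaling to a control could also move, and −log10 q grows with depth. Ratios were therefore centred by subtracting the median of all 15888 autosomal pairs. A value of 0 below is that median, and not equality of the lists. Chromosome 9 and the point at 128.0 Mb were chosen by the values of paired regions in this same contrast, so the ratios and unshared shares are given as a description.

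The median centred log2 ratio on chromosome 9 was −0.28, with quartiles of −0.49 and −0.06, and 600 of 758 pairs (79.2%) lay below 0, where the background is 50% by construction. A pair was called lower at −0.5 or less and higher at 0.5 or more. By that rule 186 pairs (24.5%) were lower, where the background was 13.8%, and 42 (5.54%) were higher, where it was 11.1%. The pairs on either side of the lower limit had −0.50 and −0.49. Among the 22 autosomes chromosome 9 had the second lowest median, after chromosome 8 with −0.34, and before chromosomes 21 and 1 with −0.15 each. Medians of the other autosomes ran from −0.06 on chromosome 11 to 0.22 on chromosome 13. The quartile ranges of chromosomes 8 and 9 overlapped widely, that of chromosome 8 running from −0.54 to −0.14.

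**Figure D2:**
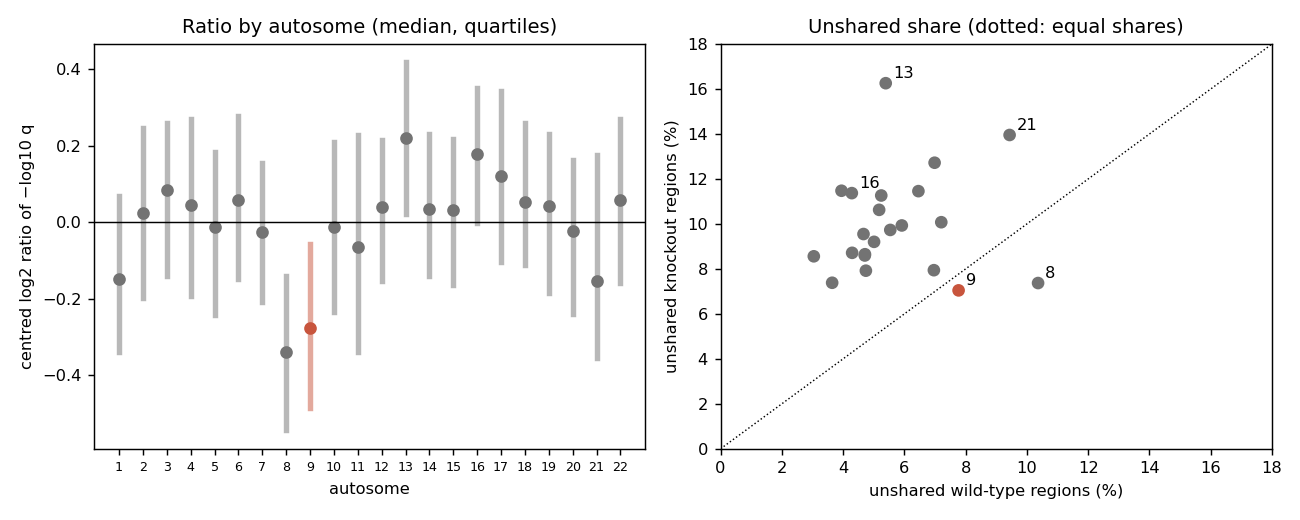
Left, centred log2 ratio of −log10 q for each autosome, with points for medians and bars for quartiles over pairs; right, percent of unshared regions in the wild-type (x) and knockout (y) lists for each autosome, with a dotted line of equal shares. Chromosome 9 (red) had a median of −0.28 and lay below the dotted line, with 7.77% of wild-type and 7.04% of knockout regions unshared.

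Low ratios ran along the whole chromosome. On the short arm the median over 217 pairs was −0.36, with quartiles of −0.56 and −0.17, and 190 pairs lay below 0. On the long arm it was −0.24 over 541 pairs, with quartiles of −0.46 and −0.01, and 410 pairs lay below 0. The quartile ranges of the arms overlapped. All 26 windows with a pair had a median below 0, and in 21 of them the upper quartile was below 0 as well. Of these windows, 10 held fewer than 20 pairs. Among windows with at least 10 pairs the median was below 0 in 24 of 24 on chromosome 9, in 26 of 27 on chromosome 8 and in 208 of 461 (45.1%) on all autosomes other than 9.

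The lowest window was that from 45 to 50 Mb, next to the gap, with a median of −0.75 over 16 pairs, quartiles of −1.03 and −0.46, and all 16 pairs below 0. Over the 461 windows of the other autosomes the lowest median was −0.62. The neighbouring window from 40 to 45 Mb had −0.44 over 20 pairs and that from 35 to 40 Mb −0.39 over 57 pairs. Over these 3 windows values became lower towards the gap, but not over the arm as a whole: the median was −0.37 from 15 to 20 Mb and −0.20 from 25 to 30 Mb. Without the pairs from 35 to 75 Mb the short-arm median was −0.29, and that of all pairs before 128.0 Mb was −0.30.

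Across the region-free stretch, the window from 65 to 70 Mb had a median of −0.28 over 35 pairs but quartiles of −0.73 and 0.28. It held 12 lower (34.3%) and 8 higher pairs (22.9%), where the backgrounds over all autosomal pairs were 13.8% and 11.1%. In the weakest quartile of autosomal pairs by mean −log10 q they were 37.4% and 21.6%, near the shares in this window. Its pairs were weaker by median, with a −log10 q of 47.8 (wild type) and 78.7 (knockout), against 157 and 245 over the chromosome. Not all of its higher pairs were weak. The strongest quartile of autosomal pairs held 3 higher pairs of chromosome 9, all in this window. They were at chr9:66971013-66971619 with 237 (wild type) and 750.4 (knockout), chr9:67320394-67320928 with 203 and 684, and chr9:69710700-69711333 with 393 and 1088. The part of pair strength in this spread was not tested.

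Away from the gap, the window from 10 to 15 Mb had −0.58 with all 9 pairs below 0, too few to be counted among the windows of at least 10 pairs. It held 3 neighbouring pairs of low ratio, at chr9:14314829-14315363, chr9:14315663-14316086 and chr9:14322088-14323154, positions of the wild-type regions. In the first, −log10 q was 18.3 (wild type) and 20.1 (knockout), a centred log2 ratio of −0.70. In the second it was 25.7 and 6.74, a ratio of −2.77. In the third it was 200.2 and 108, a ratio of −1.73. All 3 thus stood below the median of their arm by −log10 q. By fold their centred log2 ratios were 0.93, 0.06 and −0.17, so the first was a higher pair by that measure. The first and second were not named by rule and were picked after their values were seen.

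Another run of low pairs, also singled out after its values were seen, lay from 117 to 119 Mb. All 7 pairs there were below 0, from −2.33 to −0.26, with a median of −0.98. Most were weak, with a median −log10 q of 29.1 (wild type) and 20.1 (knockout). The window that held them, from 115 to 120 Mb, had a median of −0.35 over 34 pairs.

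**Figure D3:**
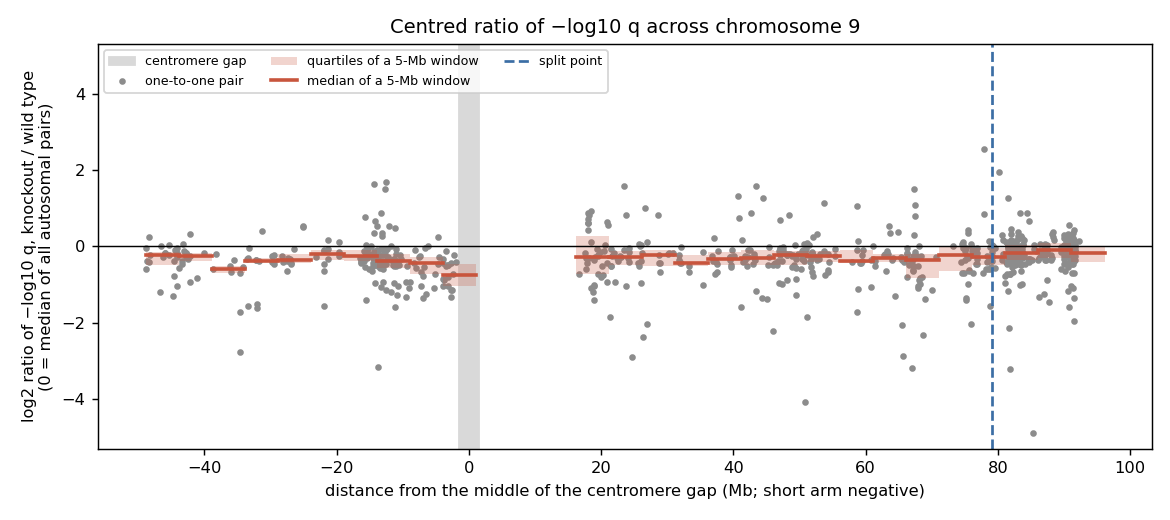
Centred log2 ratio of −log10 q of each one-to-one pair (grey points) against distance from the middle of the centromere gap in Mb, with the median (red line) and quartiles (red band) of each 5-Mb window; the dashed line is 128.0 Mb. Every red line lies below 0, from −0.75 next to the gap to −0.10 in the window from 135 to 140 Mb.

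The ratio was nearer to 0 beyond 128.0 Mb than before it. The 531 pairs before that point had a median of −0.32, with quartiles of −0.55 and −0.13, and 448 of them (84.4%) were below 0. The 227 pairs beyond it had a median of −0.15, with quartiles of −0.35 and 0.05, and 152 of them (67.0%) were below 0. The medians differed by 0.17, which is less than the quartile range on either side. Lower pairs made up 156 before (29.4%) and 30 beyond (13.2%), where the background was 13.8%, so the share beyond 128.0 Mb was near that of the autosomes. Higher pairs made up 36 (6.78%) and 6 (2.64%), both under the background of 11.1%. The long arm before the point, with 314 pairs, had a median of −0.29.

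Closer to the point, the last 30 pairs before it had a median of −0.32, with quartiles of −0.59 and −0.07, and the first 30 beyond it −0.20, with quartiles of −0.40 and 0.03. In windows of 1 Mb the median was −0.37 over 13 pairs from 127 to 128 Mb, −0.14 over 6 pairs from 128 to 129 Mb and −0.12 over 35 pairs from 130 to 131 Mb. No single place divided all lower from all higher windows. The median was −0.33 from 133 to 134 Mb over 8 pairs and −0.23 from 140 to 141 Mb over 29 pairs, and it was 0.24 from 137 to 138 Mb over 5 pairs and 0.01 from 139 to 140 Mb over 36 pairs. From 128.0 to 137 Mb the 146 pairs had a median of −0.19, and the 81 pairs beyond 137 Mb one of −0.06. The limit of 137 Mb was chosen after the values were seen. The last window, from 140 to 145 Mb, had a median of −0.18, further from 0 than the −0.10 of the window before it.

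The 5 pairs nearest to the point on each side show the single values. At chr9:127630614-127632803 −log10 q was 253 (wild type) and 448 (knockout), a centred log2 ratio of −0.01. At chr9:127702780-127704404 it was 268 and 319.8, a ratio of −0.58. At chr9:127904891-127905838 it was 238 and 294, a ratio of −0.53. Of these, the first lay at the autosomal median and the other 2 were lower pairs. At chr9:127951267-127952729 the values were 383 and 559.7, a ratio of −0.29, and at chr9:127962277-127963502 they were 247 and 397, a ratio of −0.15. All 5 pairs before the point were therefore below 0.

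Beyond the point, chr9:128002799-128003613 had 259 (wild type) and 476 (knockout), a ratio of 0.04. Its neighbour chr9:128003930-128004669 had 241 and 327, a ratio of −0.39. These adjoining pairs thus differed by more than the medians before and beyond 128.0 Mb did. At chr9:128023624-128024918 the values were 406 and 614, a ratio of −0.24. At chr9:128172729-128173509 they were 249 and 450.2, a ratio of 0.02, and at chr9:128468664-128469533 they were 336 and 582, a ratio of −0.05. The 5 pairs beyond the point lay from −0.39 to 0.04 and overlapped the 5 before it, which lay from −0.58 to −0.01.

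Unshared regions were set beside this division. Before 128.0 Mb, 56 of 633 wild-type regions were unshared, 8.85% (6.75 to 11.3%), and 40 of 600 knockout regions, 6.67% (4.81 to 8.97%). Beyond it, 14 of 268 wild-type regions were unshared, 5.22% (2.89 to 8.61%), and 21 of 266 knockout regions, 7.89% (4.95 to 11.8%). The backgrounds over all autosomes were 5.56% and 9.61%. Beyond the point both shares were below the background, which both intervals held. Before it, the wild-type share was above the background and the knockout share below it. Since the point was chosen by paired regions of this same contrast, this placing is a description and not a test. The intervals before and beyond the point overlapped in each list.

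In all, 4 measures of a region were compared over the same pairs, each centred in the same way. By summit pileup the median log2 ratio on chromosome 9 was −0.27, and by the local background rate recovered with it −0.28. By fold, which sets the pileup against that rate, it was −0.02, with quartiles of −0.12 and 0.09. A lower pileup thus went with a lower local rate, and their quotient stayed near the autosomal median. Whether the fragments of a region enter its own local rate was not tested. If they do, fold understates a difference in pileup. In fragments, the median pileup of paired regions was 215 (wild type) and 343 (knockout), and the median rate 15.8 and 27.1 fragments per base. On the other autosomes the median pileups were 233 and 441, and the median rates 17.9 and 35.9.

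The division at 128.0 Mb followed the same measures. The pileup ratio was −0.32 before and −0.14 beyond it, and the rate ratio −0.33 and −0.18. The fold ratio was −0.02 before and −0.01 beyond it. By fold, 35 pairs of the chromosome were lower, 4.62% against a background of 3.8%, and 18 were higher, 2.37% against 3.5%, both near the background. Also by fold, 18 of the 26 windows with a pair had a median below 0, against all 26 by −log10 q and by pileup. Although small, the fold median of chromosome 9 was the lowest of the 22 autosomes, which ran up to 0.04 on chromosome 4.

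**Figure D4:**
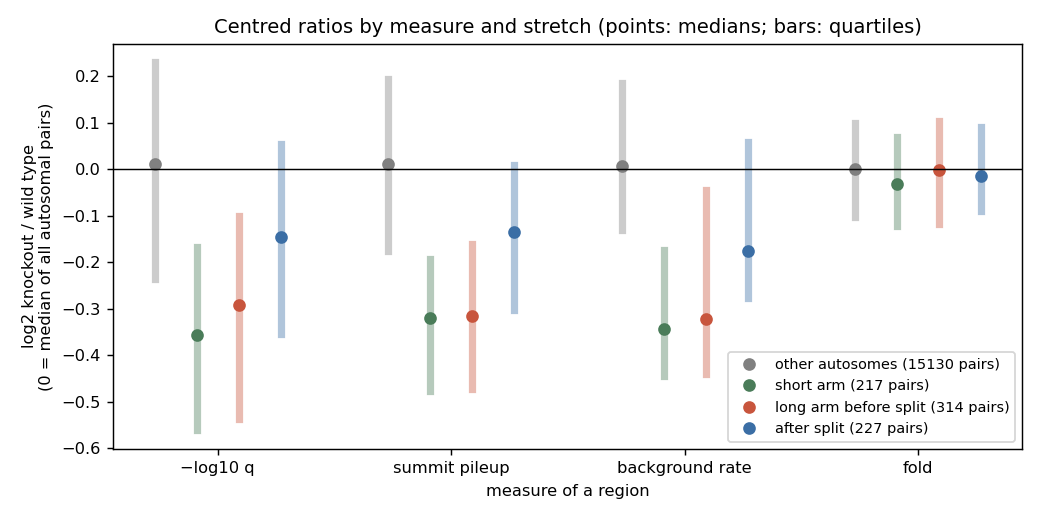
Log2 ratio, knockout over wild type, centred on all autosomal pairs, for 4 measures of a region (x axis) on the other autosomes (grey), the short arm (green), the long arm before 128.0 Mb (red) and the stretch beyond it (blue); points are medians and bars quartiles over pairs. The 3 stretches of chromosome 9 lie below 0 by −log10 q, pileup and rate, and between −0.03 and 0.00 by fold.

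Region width showed a smaller difference in the same direction. The knockout region was the wider in 563 of 758 pairs (74.3%), where the background was 82.1%, and the median width ratio was 1.05, against 1.06 on the other autosomes. On the short arm the knockout region was wider in 68.7% of pairs, on the long arm before 128.0 Mb in 75.2% and beyond it in 78.4%. This order matched that of the ratio of −log10 q over the 3 stretches.

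The ratio was then examined by strength, in quartiles of all autosomal pairs by mean −log10 q. On chromosome 9 the median was −0.59 in the weakest quartile (194 pairs), −0.25 in the second (214 pairs), −0.25 in the third (217 pairs) and −0.24 in the strongest (133 pairs). On the other autosomes the corresponding medians were −0.20, 0.04, 0.02 and 0.04. Strong pairs on chromosome 9 were thus displaced by a similar amount in the upper 3 quartiles. The spread narrowed with strength, from an interquartile range of 1.10 in the weakest to 0.25 in the strongest quartile. Of the strongest pairs 119 of 133 (89.5%) lay below 0, against 42.0% on the other autosomes.

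Before and beyond 128.0 Mb the medians were −0.65 and −0.30 in the weakest quartile, −0.30 and −0.04 in the second, −0.30 and −0.16 in the third, and −0.28 and −0.13 in the strongest. The stretch beyond the point was nearer to 0 in each quartile. In the strongest quartile 95 of 102 pairs before the point and 24 of 31 beyond it were below 0.

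**Figure D5:**
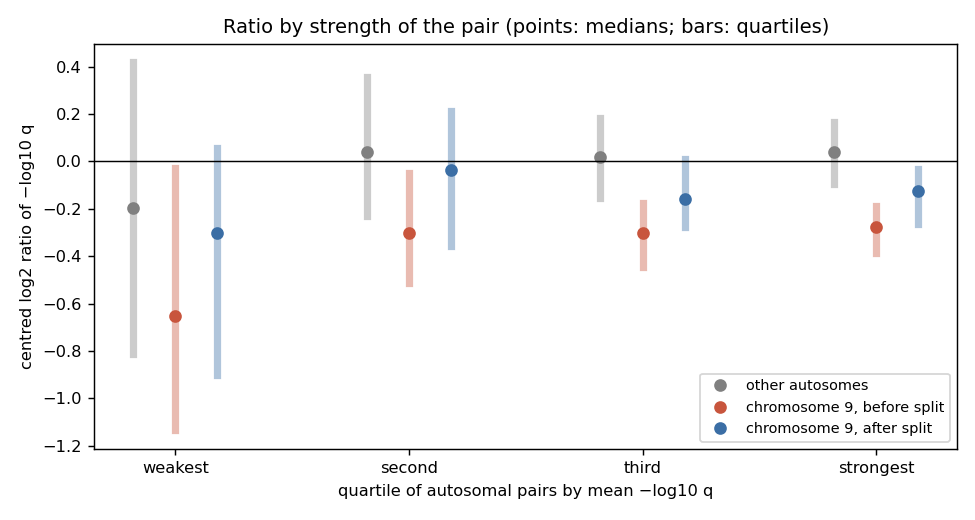
Centred log2 ratio of −log10 q in quartiles of autosomal pairs by mean −log10 q (x axis, weakest to strongest), for the other autosomes (grey) and for chromosome 9 before (red) and beyond 128.0 Mb (blue); points are medians and bars quartiles over pairs. In every quartile red lies below blue and blue below grey.

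Single pairs departed widely from these medians. Among the 628 pairs with a −log10 q of at least 20 in both lists, 117 were lower (18.6%) and 23 higher (3.66%), where the backgrounds over autosomal pairs of that strength were 8.67% and 7.66%. The lowest, at chr9:115912924-115913822, had a −log10 q of 234 (wild type) and 46.2 (knockout) and pileups of 248 and 59, a centred log2 ratio of −3.18. The next, at chr9:114360675-114362046, had 123 and 53.1 with pileups of 175 and 82, a ratio of −2.05. At chr9:75747195-75747828 the values were 50.9 and 22.1 with pileups of 53 and 35, a ratio of −2.04. In each of these 3 the knockout library had the smaller pileup, so they were low without centring too.

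The remaining ones of the 5 lowest were on the short arm. One was the pair at chr9:14322088-14323154 given above, with pileups of 237 and 135. The other, at chr9:37753491-37754514, had a −log10 q of 297 and 175 and a ratio of −1.60. By fold, the centred log2 ratios of these 5 pairs ran from −0.93 to −0.17, nearer to 0 in each of them than the ratio of −log10 q.

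The highest pair, at chr9:129088890-129089610, had a −log10 q of 23.5 (wild type) and 162 (knockout) and pileups of 27 and 207, a ratio of 1.95. Its knockout region was 1191 bp wide and its wild-type region 721 bp. At chr9:72287117-72287835 the values were 20.8 and 112, a ratio of 1.59, and at chr9:36136337-36137190 they were 51.0 and 260.0, a ratio of 1.51. These pairs were weak in the wild type, with pileups of 27, 27 and 59 there. The other two were chr9:116111765-116112255 with 32.0 and 163, a ratio of 1.51, and chr9:89561064-89562599 with 37.9 and 169, a ratio of 1.32. By fold these 5 pairs also lay above 0, from 0.16 to 0.80.

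Of the pairs below the limit of 20 in the knockout list, 3 had lower ratios than any of these; they were singled out after their values were seen. At chr9:134152669-134153610 the −log10 q was 132 (wild type) and 8.02 (knockout), a ratio of −4.88. At chr9:99637823-99638577 it was 67.7 and 7.21, a ratio of −4.07. At chr9:130639378-130640324 it was 72.9 and 14.2, a ratio of −3.20. The first and the last of them lay beyond 128.0 Mb, where the median ratio was the nearer to 0.

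The region of highest fold was the same in both lists. At chr9:69710700-69711333 in the wild-type list it had a fold of 34.6, a −log10 q of 393 and a pileup of 339, and its knockout partner had a fold of 35.7, a −log10 q of 1088 and a pileup of 951. Its centred log2 ratio of 0.63 made it a higher pair, in the window next to the region-free stretch. In the knockout list this was also the region of highest −log10 q on the chromosome. The next by fold in the wild-type list were chr9:129676766-129677528 with 32.2 and chr9:130497073-130497663 with 32.1. In the knockout list they were chr9:131965172-131965936 with 34.1 and chr9:129676704-129677507 with 33.0. Apart from the first, all of these lay beyond 128.0 Mb.

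By −log10 q the strongest wild-type regions were chr9:102668623-102669818 with 574, chr9:94123236-94124229 with 539.8 and chr9:17134973-17135979 with 531. Their knockout partners had 614, 692 and 724, and the centred log2 ratios were −0.74, −0.48 and −0.39. After the region of highest fold, the strongest in the knockout list were chr9:139257771-139258266 with 891 and chr9:33024534-33026260 with 766, whose wild-type partners had 506 and 469 and whose ratios were −0.02 and −0.13. The ratio contains the value by which these regions were ranked.

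The widest wild-type regions were chr9:32550396-32552888 with 2493 bp, chr9:4297518-4299996 with 2479 bp and chr9:6757145-6759577 with 2433 bp, all on the short arm. Their −log10 q values were 229, 106 and 246 in the wild-type list and 300.2, 145 and 369.6 in the knockout list, with ratios of −0.45, −0.38 and −0.25. The widest knockout regions were chr9:78504804-78507725 with 2922 bp, chr9:86593730-86596475 with 2746 bp and chr9:32550264-32552948 with 2685 bp. The wide regions of the short arm thus had ratios near the median of that arm.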

How the data were processed

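H3K4me3 ChIP-seq peaks of HEC-1-B cells, 1 library each from the wild type and the ZNF143 knockout, were analysed, grouped by the genotype in the labels. Per the submitters' processing notes, Bowtie2, SAMtools 1.12, MACS2 and deepTools and the build hg19 (GRCh37) were used; the peak-calling settings and any control are not given in the sources used here. Per the file layout, the deposited narrowPeak columns hold, for each region, the fold ratio of the summit pileup to the local background (column 7), −log10 p and −log10 q (columns 8 and 9), an integer score from column 9 that the authors' caller wrote and that was not used, and the summit offset. These are the authors' values and are not scaled between the lists. Total read counts were not used here.

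Summit pileups and local rates were recovered by solving fold = (pileup + 1)/(rate + 1) with the Poisson upper tail for column 8. On simulated data of the size of each list (20567 and 20509 regions), this returned 100% of the pileups. Those data were made with the same formulas, so this checks the solving and not the form of the deposited columns. Whole-number pileups gave back the deposited column 8 with a relative error of at most 1.76e-05 (wild type) and 2.67e-05 (knockout). Lowest rates were 1.40 and 3.25 fragments per base. Regions were paired by overlap of at least 1 bp, and ratios were centred on the median of autosomal pairs. No test between genotypes was made. Named regions followed a rule: the 3 highest by fold, by −log10 q and by width in each list; the 5 strongest more than 1 kb from any region of the other list; the 5 lowest and 5 highest ratios among pairs of −log10 q at least 20; the 5 pairs on either side of 128.0 Mb; and regions beside the gap and region-free stretches. The members, the division at 128.0 Mb and the rules were chosen with earlier results of these data known. Alternatives were tried for the overlap, threshold, measure, centring, pairs and division point. Gene names, cell type markers and sequences were not used here, since the gene tables at hand follow GRCh38. Scripts ran in Python 3.11.15 with scipy 1.17.1, pandas 2.3.3, matplotlib 3.10.9 and numpy 2.4.6.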

Additional observations from a re-analysis of the deposited data

Results flagged for a closer look

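Regions were also called on unlocalized sequences assigned to chromosome 9, which no comparison above uses. They numbered 49 (wild type) and 64 (knockout). No control library was analysed here to set these against. Of them, 48 wild-type and 63 knockout regions lay on a single sequence, where the median −log10 q was 11.8 and 22.8.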

How the results depend on the processing

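No paired analysis was possible because there was a single library of each genotype, which also left no replicate to drop. Of 104 recomputed values, 86 stayed within 1.5 times (counts) or within the 95% binomial interval (shares and medians), 18 moved and 0 changed sign. Counts, covered bases and shares cannot change sign, so the last number bears on the ratios alone. Numbers of regions and covered bases stayed within 1.5 times. Under a reciprocal overlap of 50% the unshared share was 15.3% (wild type) and 11.9% (knockout), 15.6% and 11% before 128.0 Mb, and 14.6% and 13.9% beyond it, where the knockout share was no longer the higher. Regions of the other list within 1 kb counted as shared left 5.31% of knockout regions unshared. The autosomal shares under these other rules are not given here. The backgrounds of 5.56% and 9.61% hold for an overlap of 1 bp, so these shares cannot be placed against the autosomes. By fold in place of −log10 q the median ratio was −0.016 on the chromosome, −0.031 on the short arm, −0.0069 on the long arm, −0.017 before and −0.015 beyond 128.0 Mb, a difference of 0.0018. Fold divides the pileup by the local rate, and both were lower. Whether a region's own fragments enter that rate was not tested. By fold 35 pairs were lower (4.62%, background 3.8%) and 18 higher (2.37%, background 3.5%), both near the background. With a −log10 q of at least 20, which leaves fewer pairs, 117 were lower (18.6%, background 8.83%) and 23 higher (3.66%, background 7.52%), the backgrounds centred on those pairs. Without 35 to 75 Mb, chosen after seeing the data, the short-arm median was −0.29. Without the stretch beyond 137 Mb, also chosen then, the difference across 128.0 Mb was 0.13. Moving that point by 500 kb either way gave 0.17. Depth limits the weak end: no pileup under 7 (wild type) or 12 (knockout) was called on the chromosome.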
